A study of Arabidopsis thaliana with 6 samples.

Results

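The genes described here make, export and regulate the lipid barriers of Arabidopsis thaliana, namely cuticular wax, cutin and suberin. They were taken by locus number from a list of 49 genes with known roles in these pathways, out of 33511 rows in an expression table of whole seedlings. A row could be assigned to 48 of the 49. The row named FAR1 carries a symbol shared by the suberin reductase AT5G22500 and a light-signalling factor, AT4G15090, and is not used here.

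All 6 libraries came from 4-day-old seedlings of the Col-0 background that were homozygous for iMUTE, a MUTE cDNA carried in pER8, a vector induced by estradiol. In pER8 a constitutive promoter drives an estrogen-responsive activator, so that the inserted gene can be switched on in most tissues and not in its own cell lineage alone. Pools of 40 to 50 seedlings were bathed for 8 h in liquid medium with 10 µM estradiol (3 libraries) or with DMSO (mock, 3 libraries). MUTE is a basic helix-loop-helix transcription factor of the stomatal lineage. All groups carried the construct, so effects of estradiol and of MUTE cannot be told apart. How many transgenic lines were used, and whether the 3 pools of a group were grown separately, is not given in the sources used here, and p-values measure only the spread between these pools.

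Cuticular wax and cutin cover the shoot epidermis, guard cells included, and limit the loss of water. Wax starts from fatty acids that an elongase complex in the endoplasmic reticulum lengthens, after which an alkane branch and an alcohol branch make the final products. Cutin is a polyester of hydroxylated fatty acids and glycerol, made by CYP86A and CYP77A hydroxylases and GPAT acyltransferases. Suberin is a related polyester laid down in the root endodermis. ABCG transporters and lipid transfer proteins carry wax and cutin components out of the cell, and MYB and SHN factors regulate the genes.

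Values are FPKM, fragment counts scaled to transcript length and library size, so that levels can be compared between genes. Differences were tested as log2(FPKM + 1), estradiol minus mock, with limma over the 19134 genes that reached 1 FPKM in at least 3 libraries, and a gene is said to have risen or fallen where its Benjamini-Hochberg adjusted p over those genes was under 0.05. MUTE checked the labels, with 3.31, 1.89 and 1.90 FPKM in mock 1, 2 and 3 and 2946, 2964 and 3049 FPKM in estradiol 1, 2 and 3. The number of table rows at 0 was 8559 to 8679 in the mock libraries and in estradiol 2, but 9514 in estradiol 1 and 9182 in estradiol 3. Absolute depth is not given in the table, so no counting intervals are printed.

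Among the members, 5 of 10 wax elongation genes and all 5 export genes tested fell with estradiol, cutin genes moved both ways, and 1 of 5 suberin genes tested rose. Of the 48 members with a row, 40 were tested, each of which reached 1 FPKM in all 6 libraries. Among them 15 fell and 5 rose. The share that fell was 37.5%, against 12.9% of all genes tested, and the share that rose was 12.5%, against 23.3% of all genes tested. These shares of all genes are the background for every count by role or list given here. Earlier results of these data were known when the members and the other lists were chosen. In either direction 20 members (50.0%) passed, against 36.2% of all genes. The median difference of the 40 was -0.06 (log2), and that of all genes tested was 0.05. The groups did not overlap for 22 members (55%), against 51% of all genes. None of the 40 members passed the threshold with a difference of at least 2-fold on the log2(FPKM + 1) scale, as 0.81% of all genes did. The added 1 damps changes of genes at low level, and the mean of the member MYB16 fell by 56.38%.

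Among all calls 64.3% were higher with the values as deposited, 52.8% after quantile normalization and 46.9% when median-of-ratios size factors were applied. After quantile normalization 16 members fell and 4 rose, where 16.1% of all genes fell and 18.0% rose. With the size factors 18 members fell and 4 rose, where 17.9% of all genes fell and 15.8% rose.

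**Figure D1:**
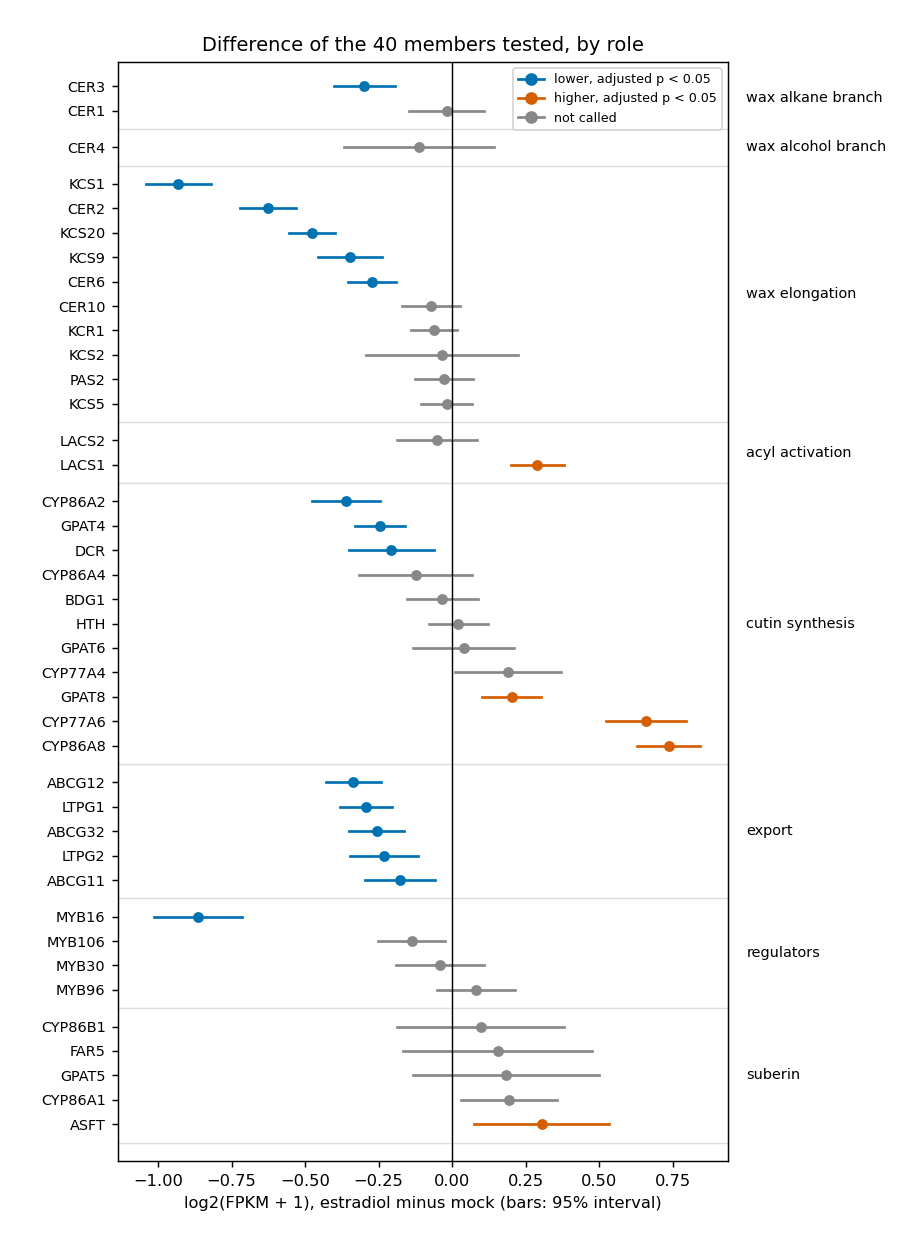
Difference in log2(FPKM + 1), estradiol minus mock, of the 40 members tested, grouped by role, with the 95% interval of the limma fit as bars. All 5 export genes tested lie below 0, all 10 elongation genes have estimates below 0, and cutin genes lie on both sides, from -0.36 for CYP86A2 to 0.74 for CYP86A8.

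Sequence upstream of 4 members is shown because they were the largest fall or rise past the threshold, on the log2(FPKM + 1) scale, within the wax, cutin and suberin roles. Each line holds the 250 bases before the annotated transcript start on the gene's own strand, from RefSeq assembly TAIR10.1. The submitters' processing notes name TAIR10, from which TAIR10.1 differs in its organelle sequences and not in its nuclear chromosomes. No annotated gene lies in any of the 4 windows. Capitals mark the E-box CANNTG, the motif that basic helix-loop-helix factors bind, searched on both strands. KCS1 (chr1:59216-59465, minus strand) is the largest fall among wax members. CYP86A2 (chr4:160393-160642, plus strand) and CYP86A8 (chr2:18914740-18914989, minus strand) are the largest fall and rise among cutin synthesis members on that scale. ASFT (chr5:16431054-16431303, plus strand) is the only suberin member past the threshold.
KCS1: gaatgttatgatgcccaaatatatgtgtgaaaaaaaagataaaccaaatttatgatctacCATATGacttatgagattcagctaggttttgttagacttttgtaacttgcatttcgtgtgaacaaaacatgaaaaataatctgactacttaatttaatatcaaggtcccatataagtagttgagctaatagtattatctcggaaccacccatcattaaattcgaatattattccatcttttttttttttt
CYP86A2: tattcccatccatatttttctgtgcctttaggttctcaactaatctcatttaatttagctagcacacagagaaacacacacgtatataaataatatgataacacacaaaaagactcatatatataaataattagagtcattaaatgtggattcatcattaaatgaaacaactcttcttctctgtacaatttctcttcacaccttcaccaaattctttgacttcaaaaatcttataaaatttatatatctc
CYP86A8: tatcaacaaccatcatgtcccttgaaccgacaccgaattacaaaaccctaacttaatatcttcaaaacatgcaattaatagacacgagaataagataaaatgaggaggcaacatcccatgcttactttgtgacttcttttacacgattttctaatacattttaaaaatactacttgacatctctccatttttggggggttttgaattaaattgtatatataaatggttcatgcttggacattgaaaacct
ASFT: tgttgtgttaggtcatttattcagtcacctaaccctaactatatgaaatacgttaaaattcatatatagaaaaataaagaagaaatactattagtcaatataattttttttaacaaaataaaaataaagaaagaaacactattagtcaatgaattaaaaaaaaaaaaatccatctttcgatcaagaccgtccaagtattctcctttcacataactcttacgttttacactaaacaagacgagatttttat

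Of these 4 windows, the E-box occurred in that of KCS1 alone. Over all 49 members 32 windows (65.3%) held an E-box, against 55.3% of the same windows of 27443 nuclear protein-coding genes. It was present for 11 of the 15 members that fell, 3 of the 5 that rose and 15 of the 20 tested members that did not pass. The G-box CACGTG, which is one form of the E-box, occurred in 0 of the 49 windows and in 6.49% of all. The GCC-box GCCGCC, bound by factors of the AP2/ERF class, occurred in 1 window, that of GPAT6, and in 1.87% of all.

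The L1-box TAAATGCA, an element of epidermal promoters that HD-ZIP class IV factors bind, occurred in 3 of the 49 windows (6.12%) and in 1.57% of all. The 3 sites are shown in 30 bases each, with the L1-box in capitals and on the gene's own strand. They were picked because they matched. The site ended 68 bases before the annotated start of KCS9, 74 before that of ABCG11 and 16 before that of MYB96. KCS9 and ABCG11 fell with estradiol, and MYB96 did not pass the threshold.
KCS9: tcacattaaagTAAATGCAgacatatgcta
ABCG11: tctattcatacTAAATGCAaaccatctatc
MYB96: gagaaagagagTAAATGCAttttgctgtcc

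Levels of the 48 assigned members spanned the table. In mock libraries 7 members averaged at least 50 FPKM, 18 averaged 10 to 50, 15 averaged 1 to 10, and 8 averaged under 1. The highest was LTPG1 (AT1G27950) at 123.9 ± 4.95 FPKM (SD, n = 3), higher than 97.0% of the genes tested, followed by CER10 at 78.8 ± 4.38 and KCR1 at 64.4 ± 1.09. KCS20 and CYP86A2 came next at 63.8 ± 1.49 and 63.04 ± 2.25 FPKM, and these 3 did not differ beyond their spread. The alkane-forming enzyme CER1 stood at only 2.16 ± 0.127 FPKM, while its partner CER3 stood at 28.9 ± 1.52. Of the 25 tested members with a mock mean of at least 10 FPKM 17 passed the threshold, and of the 15 below 10 FPKM 3 passed. Calls were also more frequent at higher level over all genes. In the main fit 23.3% of all genes rose and 12.9% fell, against 30.3% and 16.1% with the filter at 5 FPKM. The share of all genes above and below 10 FPKM was not computed.

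**Figure D2:**
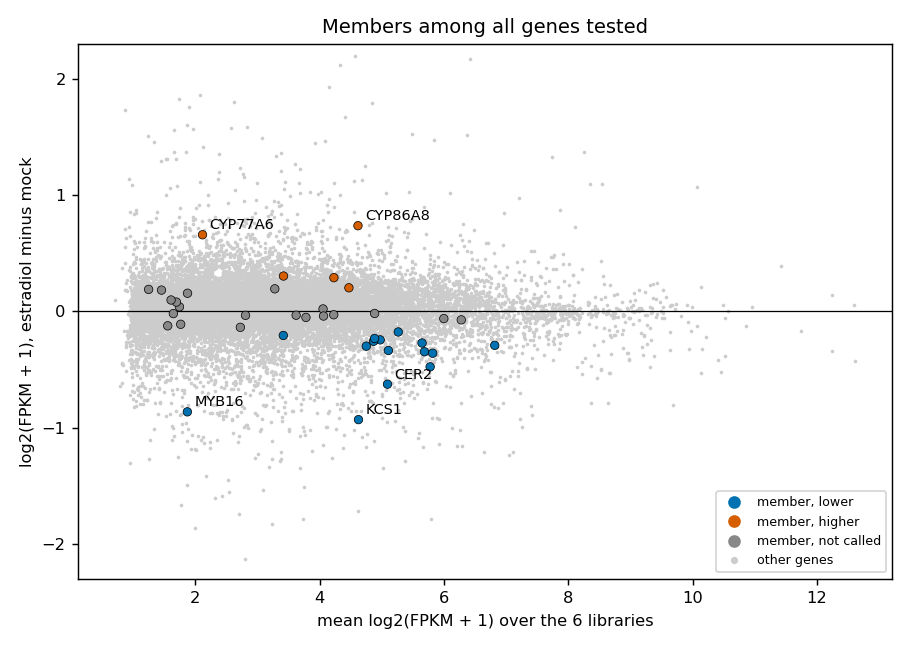
Difference in log2(FPKM + 1), estradiol minus mock, against the mean log2(FPKM + 1) over the 6 libraries, for all genes tested (grey) and for the 40 members (coloured by call). Most members that fell lie at mean values between 4 and 7, while 6 genes with differences beyond 2.3 in size lie outside the plotted range.

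The fatty acid elongase extends acyl chains by a cycle in which the ketoacyl-CoA synthase (KCS) sets the chain length and 3 further enzymes complete the cycle. Of the 6 KCS members 4 fell and 0 rose. Their summed level was 239.71 to 249.07 FPKM in mock and 182.3 to 189.09 FPKM in estradiol libraries, so that the groups did not overlap. The other 3 enzymes of the cycle did not pass the threshold.

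KCS1 (AT1G01120), a synthase with a broad role in wax, fell furthest of all members on the log2(FPKM + 1) scale. Its values were 32.47, 34.43 and 32.42 FPKM in mock 1, 2 and 3 and 17.41, 17.47 and 15.81 FPKM in estradiol 1, 2 and 3. Every estradiol library lay near the middle between 0 and the mock values. The difference was -0.93 (log2; SE 0.0477, limma adjusted p 9.84e-06), the 101st lowest of the 19134 genes tested, and the mean fell by 48.96%.

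KCS20 (AT5G43760), which acts with KCS2 in wax and root suberin, had 63.29, 65.46 and 62.62 FPKM in mock and 46.74, 45.32 and 44.63 FPKM in estradiol libraries. It fell by 0.48 (log2; SE 0.0338, limma adjusted p 5.2e-05). KCS9 (AT2G16280), which makes acyl chains used in wax, suberin and membrane lipids, had 54.20, 59.11 and 58.06 FPKM in mock and 44.10, 47.14 and 42.89 FPKM in estradiol libraries, and fell by 0.35 (SE 0.0475, limma adjusted p 0.00113).

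CER6 (AT1G68530), the main KCS of stem wax, had 53.98, 54.69 and 53.82 FPKM in mock and 46.43, 44.32 and 43.32 FPKM in estradiol libraries. It fell by 0.27 (log2; SE 0.035, limma adjusted p 0.000837). In all 3 genes the groups stood apart, and the size of the difference was smaller than that of KCS1.

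KCS5, listed as CER60 (AT1G25450) and a close relative of CER6, did not pass, at 28.8 ± 1.04 FPKM (SD, n = 3) in mock and 28.4 ± 0.64 in estradiol libraries, with a difference of -0.02 (95% interval -0.11 to 0.07). KCS2 (AT1G04220) did not pass either (-0.03, 95% interval -0.29 to 0.23). Its interval was the widest of the elongation genes, and 63.6% of its exon bases overlap genes on the opposite strand. Whether the authors' counting used strand is not given in the sources used here, and values of such genes are uncertain.

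The 3 enzymes that complete the cycle were KCR1 (AT1G67730), the ketoacyl-CoA reductase, PAS2 (AT5G10480), the dehydratase, and CER10 (AT3G55360), the enoyl-CoA reductase. KCR1 went from 64.4 ± 1.09 to 61.6 ± 1.77 FPKM (SD, n = 3), a difference of -0.06 (95% interval -0.14 to 0.02). PAS2 had a difference of -0.03 (95% interval -0.13 to 0.07) and CER10 one of -0.07 (95% interval -0.17 to 0.03). All 3 intervals include 0. With median-of-ratios size factors, which lower the median of all genes from 0.05 to near 0, KCR1 (-0.12) and CER10 (-0.13) passed with limma adjusted p of 0.0308 and 0.0403.

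CER2 (AT4G24510) is a BAHD-type protein that lets the elongase make the longest wax precursors. Its values were 41.80, 40.45 and 41.93 FPKM in mock and 27.71, 25.19 and 26.58 FPKM in estradiol libraries. The highest estradiol value was far below the lowest mock value. CER2 fell by 0.63 (log2; SE 0.0412, limma adjusted p 3.69e-05), which in means is a drop by 36.0%. Opposite-strand genes cover 25.3% of its exon bases.

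In the alkane branch, CER3 (AT5G57800), which forms alkanes together with CER1, had 28.62, 30.55 and 27.55 FPKM in mock and 23.41, 23.90 and 22.58 FPKM in estradiol libraries. The groups did not overlap, and CER3 fell by 0.30 (log2; SE 0.045, limma adjusted p 0.00174). CER1 (AT1G02205) did not pass, at 2.11, 2.3 and 2.06 FPKM in mock and 2.16, 2.07 and 2.11 FPKM in estradiol libraries, a difference of -0.02 (95% interval -0.15 to 0.11). MAH1, listed as CYP96A15 (AT1G57750), the midchain alkane hydroxylase, is listed at 0 in all 6 libraries.

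In the alcohol branch, CER4 (AT4G33790), the reductase that makes primary alcohols, had 1.97, 2.68 and 3.04 FPKM in mock and 2.34, 2.05 and 2.44 FPKM in estradiol libraries. The groups overlapped and CER4 did not pass (-0.11, SE 0.111, limma adjusted p 0.465). WSD1 (AT5G37300), a wax ester synthase, did not exceed 0.05 FPKM in any library and was not tested.

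Long-chain acyl-CoA synthetases activate fatty acids for both wax and cutin. LACS1, listed as CER8 (AT2G47240), had 16.35, 15.45 and 16.17 FPKM in mock and 19.61, 20.40 and 19.29 FPKM in estradiol libraries. It was the only wax-related member that rose, by 0.29 (log2; SE 0.039, limma adjusted p 0.00103). LACS2 (AT1G49430), linked mainly to cutin, had 12.99 ± 0.16 FPKM (SD, n = 3) in mock and 12.5 ± 1.12 in estradiol libraries and did not pass (-0.05, 95% interval -0.19 to 0.08).

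**Figure D3:**
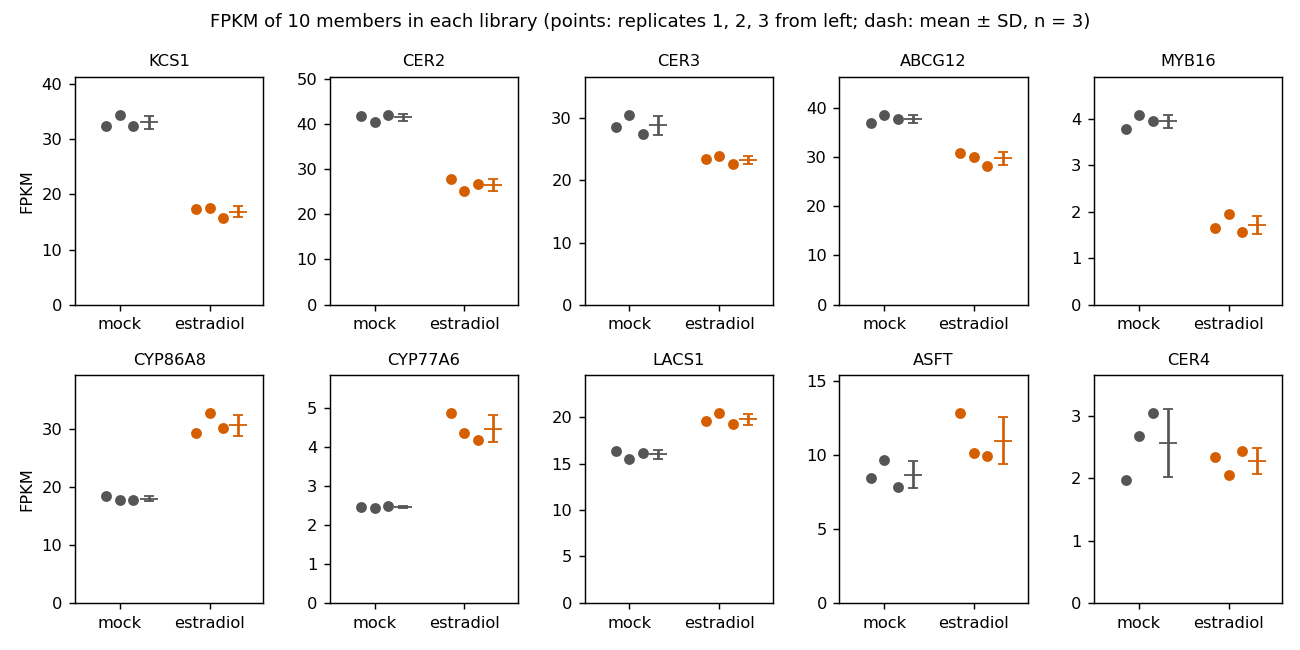
FPKM of 10 members in each library, with mock in grey and estradiol in orange, points as replicates 1, 2 and 3 from the left, and the mean with its SD beside them (n = 3). In KCS1, CER2, CER3, ABCG12 and MYB16 all estradiol points lie below all mock points. In CYP86A8, CYP77A6, LACS1 and ASFT they lie above, and in CER4 they overlap.

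Cutin hydroxylases moved in opposite directions. Of the 11 cutin genes tested 3 rose, 3 fell and 5 did not pass. Their summed level with CYP86A7, which was not tested, was 177.71 to 182.33 FPKM in mock and 174.63 to 180.53 FPKM in estradiol libraries. CYP86A8 (AT2G45970), the omega-hydroxylase known from the lacerata mutant with fused organs, had 18.49, 17.83 and 17.74 FPKM in mock and 29.29, 32.75 and 30.14 FPKM in estradiol libraries. It rose by 0.74 (log2; SE 0.0464, limma adjusted p 3.01e-05), the 156th highest of the genes tested. The lowest estradiol value was over 10 FPKM above the highest mock value.

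CYP86A2, listed as ATT1 (AT4G00360), an omega-hydroxylase of leaf cutin that is known to affect bacterial virulence gene expression, had 60.64, 63.36 and 65.11 FPKM in mock and 52.00, 45.86 and 48.99 FPKM in estradiol libraries. It fell by 0.36 (log2; SE 0.0501, limma adjusted p 0.00121). Opposite-strand genes cover 41.0% of its exon bases. Within a library the ratio of CYP86A8 to CYP86A2 was 0.273 to 0.305 in mock and 0.563 to 0.714 in estradiol libraries. The pair thus stood closer to equal level in each estradiol library than in any mock library. CYP86A4 (AT1G01600) did not pass (-0.12, 95% interval -0.32 to 0.07), but did so without estradiol 3, with a limma adjusted p of 0.0494. CYP86A7 (AT1G63710) stayed at or below 0.48 FPKM and was not tested.

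CYP77A6 (AT3G10570), the midchain hydroxylase of flower cutin, had 2.46, 2.42 and 2.48 FPKM in mock and 4.85, 4.36 and 4.17 FPKM in estradiol libraries. It rose by 0.66 (log2; SE 0.0586, limma adjusted p 0.000148), and its ratio of means was 1.82, above that of CYP86A8 (1.71), since the added 1 damps changes of genes at low level. CYP77A4 (AT5G04660) had 1.23 ± 0.13 FPKM (SD, n = 3) in mock and 1.54 ± 0.189 in estradiol libraries and did not pass (0.19, limma adjusted p 0.0936). It did pass without estradiol 3 (0.25, limma adjusted p 0.0449), and an opposite-strand gene covers all of its exon bases.

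The cutin acyltransferases GPAT4 and GPAT8, which have overlapping roles in leaf cutin and stomatal ledges, also moved in opposite directions. GPAT4, listed as ATGPAT4 (AT1G01610), had 33.06, 34.35 and 32.33 FPKM in mock and 27.85, 27.27 and 28.59 FPKM in estradiol libraries, and fell by 0.24 (log2; SE 0.0366, limma adjusted p 0.00169). GPAT8, listed as AtGPAT8 (AT4G00400), had 19.36, 19.91 and 19.81 FPKM in mock and 23.86, 23.11 and 21.54 FPKM in estradiol libraries, and rose by 0.20 (SE 0.0432, limma adjusted p 0.00836). The ratio of GPAT8 to GPAT4 was 0.58 to 0.613 in mock and 0.753 to 0.857 in estradiol libraries. GPAT6, listed as ATGPAT6 (AT2G38110), an acyltransferase of flower cutin, did not pass (0.04, 95% interval -0.13 to 0.21).

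Hydroxylase and acyltransferase genes lie near each other in the genome. In TAIR10.1, CYP86A4 (chr1:218834-221286) and GPAT4 (chr1:221642-224351) are 355 bases apart and point toward each other. CYP86A2 (chr4:160643-163023) and GPAT8 (chr4:173953-176870) also point toward each other, but are 10929 bases apart, and the gene AT4G00370 overlaps CYP86A2 on the opposite strand. CYP86A2 and GPAT8 moved in opposite directions.

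The other cutin genes were lower or did not pass. DCR (AT5G23940), a BAHD acyltransferase needed for cutin polymer, had 10.54, 10.74 and 10.15 FPKM in mock and 9.94, 8.60 and 8.36 FPKM in estradiol libraries, and fell by 0.21 (log2; SE 0.0623, limma adjusted p 0.0333). DCR lost the threshold under 6 of 13 alternatives (another pseudocount, filter, scaling or fit, or 1 library fewer), among them each fit without a single library other than estradiol 1, with limma adjusted p up to 0.0976. BDG1 (AT1G64670), an extracellular hydrolase, had a difference of -0.03 (95% interval -0.15 to 0.09). HTH, listed as EDA17 (AT1G72970) and named for fused flowers, had one of 0.02 (95% interval -0.08 to 0.12) and turned to -0.02 and -0.03 under the 2 other scalings.

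**Figure D4:**
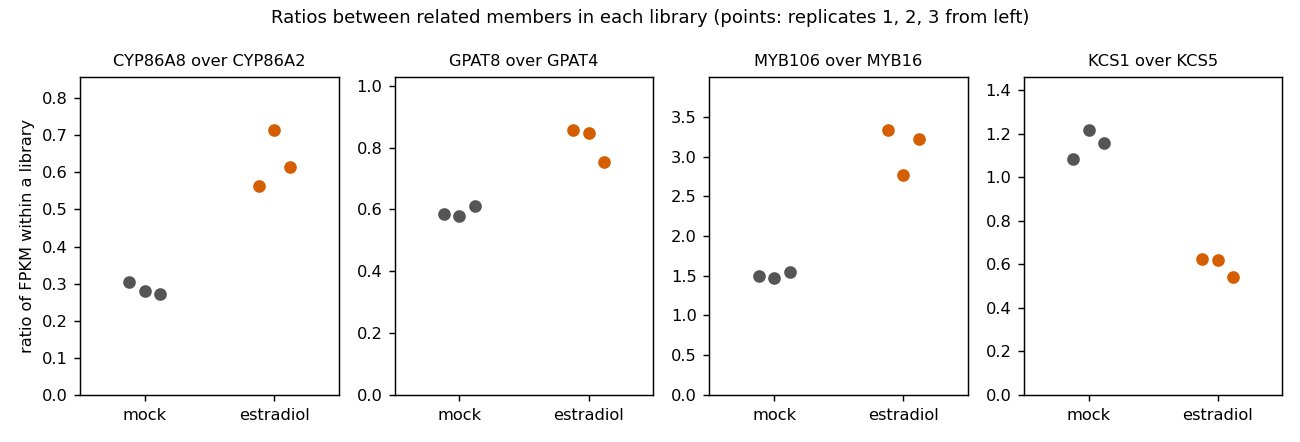
Ratio of FPKM between related members within each library, for CYP86A8 over CYP86A2, GPAT8 over GPAT4, MYB106 over MYB16 and KCS1 over KCS5, with mock in grey and estradiol in orange. In each panel the 3 mock and 3 estradiol ratios do not overlap, with KCS1 over KCS5 at 1.08 to 1.22 in mock and 0.543 to 0.623 in estradiol libraries. The ratios repeat the differences of the single genes and were not tested.

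The export members fell together. All 5 that were tested passed in the same direction, by 0.18 to 0.34 on the log2 scale, and their summed level with ABCG13 was 255.98 to 273.26 FPKM in mock and 212.21 to 225.9 FPKM in estradiol libraries. ABCG genes listed apart from the members did not share this fall. ABCG20 rose (0.286, limma adjusted p 0.0116), and ABCG1 (0.055), ABCG2 (0.085) and ABCG6 (0.396) did not pass. ABCG12 (AT1G51500), also known as CER5 and the wax exporter of the plasma membrane, had 36.87, 38.52 and 37.80 FPKM in mock and 30.83, 30.00 and 28.25 FPKM in estradiol libraries. It fell by 0.34 (log2; SE 0.0405, limma adjusted p 0.000628).

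ABCG11 (AT1G17840), the partner of ABCG12 that carries both wax and cutin, had 40.68, 40.57 and 38.55 FPKM in mock and 37.96, 34.68 and 33.12 FPKM in estradiol libraries. The highest estradiol value came within 1 FPKM of the lowest mock value, and ABCG11 fell by 0.18 (log2; SE 0.0519, limma adjusted p 0.0298). It lost the threshold under 5 of 13 alternatives, among them the fits without mock 1, mock 2, estradiol 2 and estradiol 3, with limma adjusted p up to 0.0864. Opposite-strand genes cover 31.96% of its exon bases.

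ABCG32 (AT2G26910), an exporter of cutin precursors, went from 30.96 ± 0.706 to 25.8 ± 1.17 FPKM (SD, n = 3) and fell by 0.26 (log2; SE 0.0413, limma adjusted p 0.00234). LTPG1 (AT1G27950), a lipid transfer protein held to the cell surface by a lipid anchor, had 124.45, 128.56 and 118.71 FPKM in mock and 103.31, 99.16 and 100.42 FPKM in estradiol libraries, and fell by 0.29 (SE 0.0381, limma adjusted p 0.000889). Its relative LTPG2 (AT3G43720) went from 31.06 ± 2.02 to 26.3 ± 0.847 FPKM and fell by 0.23 (SE 0.0502, limma adjusted p 0.00883). ABCG13 (AT1G51460), which exports flower cutin, did not exceed 0.84 FPKM and was not tested.

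Of the 4 regulators tested 1 fell. MYB16, listed as ATMYB16 (AT5G15310), a MIXTA-like factor that promotes cuticle formation and shapes epidermal cells, had 3.79, 4.08 and 3.96 FPKM in mock and 1.65, 1.94 and 1.57 FPKM in estradiol libraries. It fell by 0.86 (log2; SE 0.0652, limma adjusted p 6.89e-05), the 135th lowest of the genes tested, and its mean fell by 56.38%. Its relative MYB106, listed as AtMYB106 (AT3G01140), had 5.69, 6 and 6.14 FPKM in mock and 5.50, 5.38 and 5.06 FPKM in estradiol libraries. These groups did not overlap either, but MYB106 did not pass (-0.14, SE 0.0492, limma adjusted p 0.0602). It passed after quantile normalization (-0.18, limma adjusted p 0.026) and under median-of-ratios scaling (-0.19, limma adjusted p 0.027), and an opposite-strand gene covers 76.0% of its exon bases.

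MYB30 (AT3G28910), a factor that activates elongation genes during defence, did not pass, at 16.01 ± 1.603 and 15.5 ± 0.337 FPKM (SD, n = 3; difference -0.04, 95% interval -0.19 to 0.11). MYB96, listed as ATMYB96 (AT5G62470), which raises wax synthesis under drought and abscisic acid, did not pass either (0.08, 95% interval -0.05 to 0.21). The AP2/ERF factors SHN1 (AT1G15360) and SHN3 (AT5G25390) did not exceed 0.05 FPKM in any library. SHN2 (AT5G11190) was under the level tested, with 0.35, 0.24 and 0.26 FPKM in mock and 0.66, 0.59 and 0.46 FPKM in estradiol libraries. In the fit without a filter on low values SHN2 was the only such member to pass (0.29, SE 0.0577, limma adjusted p 0.0148).

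Of the 5 suberin genes tested 1 rose and 4 did not pass, where 23.3% of all genes tested rose. All 5 had fitted differences above 0, from 0.10 to 0.30. Of all 19134 genes tested 7318 had fitted differences below 0, so a difference below 0 was the less common sign among all genes. ASFT (AT5G41040), the feruloyltransferase of suberin, had 8.47, 9.65 and 7.86 FPKM in mock and 12.81, 10.16 and 9.92 FPKM in estradiol libraries, and rose by 0.30 (log2; SE 0.1, limma adjusted p 0.0452). It lost the threshold under 7 of 13 alternatives, among them the fits without mock 1, mock 3 and estradiol 1. Without estradiol 1 its difference was 0.20 (limma adjusted p 0.0908), and the range of its limma adjusted p over the alternatives was 0.0329 to 0.148.

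CYP86A1 (AT5G58860), the omega-hydroxylase of root suberin, had 7.98, 8.18 and 8.08 FPKM in mock and 10.71, 8.73 and 8.83 FPKM in estradiol libraries. The groups did not overlap, with estradiol 1 highest, and the gene did not pass (0.19, SE 0.0712, limma adjusted p 0.0652). It passed without estradiol 2, with a limma adjusted p of 0.0457. CYP86B1 (AT5G23190), which hydroxylates the longest suberin acids, had 1.83, 2.16 and 1.88 FPKM in mock and 2.90, 1.81 and 1.88 FPKM in estradiol libraries.

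GPAT5, listed as ATGPAT5 (AT3G11430), the acyltransferase of suberin, had 1.19, 2.05 and 1.56 FPKM in mock and 2.38, 1.56 and 1.89 FPKM in estradiol libraries. FAR5 (AT3G44550), a reductase that makes suberin alcohols, had 2.21, 2.78 and 2.47 FPKM in mock and 3.89, 2.27 and 2.64 FPKM in estradiol libraries. Its neighbour FAR4 (AT3G44540) did not exceed 0.84 FPKM and was not tested. In CYP86B1, GPAT5 and FAR5 the groups overlapped, and estradiol 1 was the only estradiol library above all mock libraries.

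In all 6 suberin members with a row, mock 2 was the highest mock library and estradiol 1 the highest estradiol library. Over all genes tested this combination occurred in 12.2%. In other roles mock 2 was the highest mock library in 4 of 6 export, 8 of 10 elongation and 6 of 12 cutin genes. Estradiol 1 was the highest estradiol library in 5 of 6, 6 of 10 and 6 of 12. Over all genes tested mock 2 was the highest mock library in 37.2% and estradiol 1 the highest estradiol library in 32.8%. The summed level of the 6 suberin members was 22.29, 25.49 and 22.46 FPKM in mock 1, 2 and 3 and 33.53, 25.17 and 25.86 FPKM in estradiol 1, 2 and 3. Without estradiol 1 the difference of CYP86B1 turned from 0.10 to -0.05 and that of FAR5 from 0.16 to -0.01.

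**Figure D5:**
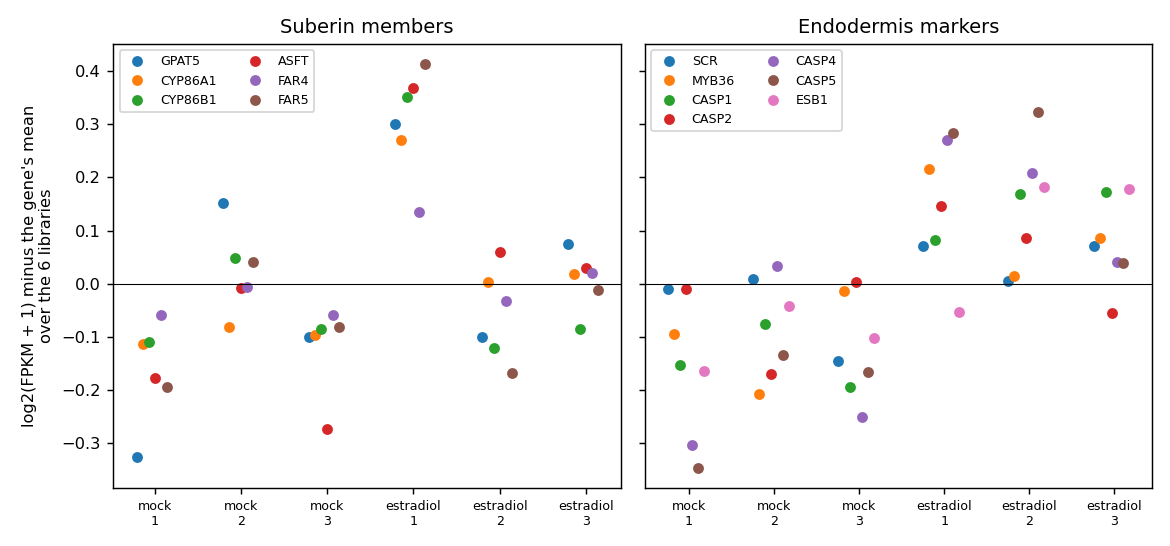
log2(FPKM + 1) of each gene minus its own mean over the 6 libraries, for the 6 suberin members with a row (left) and for 7 endodermis markers (right), 1 point per gene and library. All 6 suberin members are at their highest in estradiol 1, whereas estradiol 1 is the highest estradiol library, or level with the highest, for 4 of the 7 endodermis markers.

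Markers of the tissues that carry these barriers were read beside the members. In whole seedlings fewer cells of a type and less RNA per cell cannot be told apart. Of the shoot epidermis markers, ATML1 (AT4G21750) stood at 10.4 ± 0.243 FPKM (SD, n = 3) in mock and 10.4 ± 0.197 in estradiol libraries, with a difference of 0.00 (SE 0.0381). PDF1 (AT2G42840), a proline-rich protein of the outer cell layer, rose from 104.1 ± 8.08 to 206.2 ± 16.4 FPKM (0.98, SE 0.0709, limma adjusted p 5.58e-05). The symbol PDF1 is also a synonym of PP2AA2 (AT3G25800), which has a row of its own. The other 2 markers on the list, PDF2 and FDH, share symbols with loci that have no other row and were not assigned. The summed level of ATML1 and PDF1 was 105.18 to 119.66 FPKM in mock and 201.89 to 234.65 FPKM in estradiol libraries.

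Of the 7 endodermis markers reported 3 (42.9%) rose (CASP1, CASP4 and CASP5) and 0 fell, where 23.3% of all genes tested rose and 12.9% fell. The summed level of the 7 was 57.12 to 60.88 FPKM in mock and 68.03 to 69.04 FPKM in estradiol libraries. None of the 7 was listed at 0. Of 5 root hair markers 4 (80.0%) fell (COBL9, EXPA7, EXPA18 and RSL4), against 12.9% of all genes, and RHD6 rose. The summed level of these 5 was 37.37 to 39.74 FPKM in mock and 28.2 to 28.73 FPKM in estradiol libraries. The part that these shifts have in the members' differences was not tested.

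Other genes of the same pathways were listed by locus apart from the members. Of 42 such genes 41 had a row and 32 were tested, of which 10 fell and 7 rose, and the median difference was -0.01 (log2). The share that fell was 31.2%, against 12.9% of all genes tested. The share that rose was 21.9%, near the 23.3% of all genes tested. The largest change was that of DCF (AT3G48720), a feruloyltransferase of cutin, with 16.68, 18.09 and 18.51 FPKM in mock and 8.23, 8.14 and 7.36 FPKM in estradiol libraries. It fell by 1.07 (SE 0.0555, limma adjusted p 1.02e-05), further than any of the 40 members tested on the log2(FPKM + 1) scale, while in means it fell by 55.46% and the member MYB16 fell by 56.38%. CER26 (AT4G13840), a relative of CER2 with a role in leaf wax, had 28.17, 26.21 and 26.50 FPKM in mock and 18.44, 16.21 and 16.77 FPKM in estradiol libraries, and fell by 0.62 (SE 0.0528, limma adjusted p 0.000113), beside 0.63 for CER2.

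The other KCS genes moved both ways. Of 9 tested 3 fell (33.3%, against 12.9% of all genes tested) and 2 rose (22.2%, near the 23.3% of all genes tested). KCS8 (AT2G15090) went from 28.97 ± 1.23 to 19.2 ± 1.58 FPKM (SD, n = 3) and fell by 0.57 (log2; SE 0.0606, limma adjusted p 0.000337). KCS19 fell by 0.45 and KCS3 by 0.42, whereas KCS16 rose by 0.45 and KCS11 by 0.21, all with limma adjusted p of at most 0.00428. Among regulators MYB94 (AT3G47600), which acts with MYB96 on wax genes, fell by 0.34 (SE 0.0486, limma adjusted p 0.00144), and MYB93 (AT1G34670), a root endodermis factor, rose by 0.23 (SE 0.0607, limma adjusted p 0.0198).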

How the data were processed

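The authors deposited 1 table of FPKM values, with 1 row per gene name, 2 decimals and 1 column per library, from stranded mRNA libraries read in pairs of 50 bases, per the labels' protocols. TopHat2 2.0.13, DESeq2 and the build TAIR10 are named in the submitters' processing notes, with no role given, and the quantifier, the annotation used and whether libraries were scaled to each other are not given in the sources used here. The 1 numeric column whose heading names no sample was not used. Row names were paired with loci through RefSeq symbols and synonyms of TAIR10.1. A name shared with a locus that has no other row was not assigned.

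FPKM totals were 461555.9 to 469529.8 per library and do not show depth. Genes with at least 1 FPKM in at least 3 of 6 libraries entered a limma 3.58.1 model of log2(FPKM + 1) under R 4.3.3, in which treatment was the sole term and eBayes used an intensity trend (two-sided tests). P-values were adjusted by the Benjamini-Hochberg method over all genes tested. Fold changes on this scale understate those of genes at low level.

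The members, the other pathway genes and the markers were chosen with earlier results of these data known. Values in every library are printed at least for members past the threshold with a difference of at least 0.5 (log2), and for the member with the lowest adjusted p in roles without one. Of the other pathway genes, those past both limits are named, with ABCG, KCS and MYB genes named after their values were seen. Markers were listed by locus from textbook knowledge, and 1 endodermis marker of that list is not reported here. Alternatives changed the pseudocount, the filter, the scaling, the trend, the replicate block and the libraries used. Python 3.11.15 with pandas 2.3.3, numpy 2.4.6 and matplotlib 3.10.9 handled tables, sequences and plots.

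No pairing by replicate number was visible: deviations from the group mean correlated between libraries of equal number at -0.00638, 0.0474 and -0.00197 over genes. These values cannot show whether pools of equal number were handled together.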

Additional observations from a re-analysis of the deposited data

How the results depend on the processing

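With the replicate number as a block, which nothing in the labels ties to a shared batch and whose correlations are given with the processing, 20 members passed, the same genes as without it, and 6038 genes passed in all, against 6928. Members past the threshold numbered 17 to 22 over the 13 alternatives, and 17 of the 20 called members passed in each alternative in which they were tested. The exceptions were DCR, ABCG11 and ASFT. The filter at 5 FPKM left 29 members, and the median difference of the members moved from -0.05704 to -0.1373 with it, by the loss of members at low level, and to -0.1114 with median-of-ratios size factors, which lower the median of all genes from 0.0483 to 0.0005. Signs changed among members that did not pass. GPAT6 turned to -0.0007438 with median-of-ratios size factors, and HTH to -0.02413 after quantile normalization and -0.032 under the size factors. Across the 6 fits without a single library, the range was -0.04133 to 0.01314 for CER1, -0.03608 to 0.01022 for KCS5, -0.09878 to 0.08136 for KCS2, -0.1148 to 0.003172 for LACS2, -0.002233 to 0.1174 for GPAT6, -0.06519 to 0.0104 for BDG1, -0.0063 to 0.05729 for HTH, -0.1051 to 0.02986 for MYB30, -0.05395 to 0.1825 for CYP86B1 and -0.01202 to 0.2783 for FAR5. The cause was not tested. Over all 40 members, 470 combinations of a member and an alternative kept direction and call, 18 lost the threshold, 7 gained it and 14 changed sign. Depth is not known, and low members such as SHN1, SHN3 and WSD1 could not be compared.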

Other observations

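Below the level tested, 2 further genes of the pathway list did not overlap between groups, and were picked after their values were seen. KCS17 (AT4G34510), a ketoacyl-CoA synthase, had 0.25, 0.30 and 0.30 FPKM in mock 1, 2 and 3 and 0.82, 0.71 and 0.56 FPKM in estradiol 1, 2 and 3. MYB53 (AT5G65230), a MYB factor linked to suberin, had 0.69, 0.72 and 0.68 FPKM in mock and 1.13, 0.78 and 1.01 FPKM in estradiol libraries. The groups did not overlap for 51% of all genes tested, a set that does not hold these 2 genes. The share among genes below the level tested was not computed.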
